A study of Drosophila melanogaster with 3 samples.

Results

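The genes described here are 7 TGF-beta signalling genes of Drosophila melanogaster, centred on the Activin-like branch, with gbb from the bone morphogenetic protein branch. They are the ligand genes daw, Actbeta, myo and gbb, the receptor genes babo and wit, and the Smad gene Smox. Each was examined for peaks of tagged foxo, a transcription factor of the forkhead family whose entry into the nucleus insulin signalling restrains. The genes were chosen by name, and a binding site was assigned to one of them when its summit lay inside the gene or within 1000 bp of it. Of the 7 genes, among 13945 protein-coding genes in all, 6 had at least 1 such summit and Actbeta had none. Together they held 8 of the 9766 summits in the list that had passed the authors' reproducibility threshold, called the optimal list below.

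The measurement was chromatin immunoprecipitation sequencing of whole larvae at the wandering stage of the third instar, males and females pooled, from the strain foxo-MiMIC-GFP. In that strain an eGFP exon in an intron of foxo makes a foxo-eGFP fusion, which was precipitated with an antibody against GFP. There were 3 biological replicates of this 1 genotype and stage, all from the same line, and libraries without the tag, or of input DNA, were not analysed here. Signal that does not depend on foxo therefore cannot be told apart from signal that does, and in whole larvae the tissue that gave a peak is unknown.

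In the Activin branch a secreted dimer binds a type II receptor, which activates the type I receptor babo, and babo phosphorylates Smox, the fly Smad2, which enters the nucleus. daw, Actbeta and myo signal through babo, whereas gbb is a ligand of the bone morphogenetic protein (BMP) type whose signal at the neuromuscular junction runs through the type II receptor wit. In larvae these ligands act on metabolism, muscle, neurons and the steroid-producing prothoracic gland. daw has been reported as a foxo target in adult flies.

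Shown for the summits the results turn on are windows of 201 bases centred on the summit, written 5' to 3' on the strand of the gene, from NCBI Release 6, the assembly of dm6. They are the promoter summit of daw (chr2L:2805002-2805202, plus strand), the summit upstream of myo (chr4:696761-696961, minus strand), the highest summit of wit (chr3L:4070502-4070702, minus strand) and the highest of Smox (chrX:8141432-8141632, minus strand). Capitals mark letters that match, on either strand, the forkhead core (the preferred GTAAACA or its variants, which are GTAAATA and further ATAAACA as well as ATAAATA), the DRE element (TATCGATA) or GAGA (GAGAG).
daw: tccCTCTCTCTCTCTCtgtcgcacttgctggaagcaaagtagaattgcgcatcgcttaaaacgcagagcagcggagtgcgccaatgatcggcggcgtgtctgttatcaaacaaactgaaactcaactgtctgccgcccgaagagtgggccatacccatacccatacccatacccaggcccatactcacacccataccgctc
myo: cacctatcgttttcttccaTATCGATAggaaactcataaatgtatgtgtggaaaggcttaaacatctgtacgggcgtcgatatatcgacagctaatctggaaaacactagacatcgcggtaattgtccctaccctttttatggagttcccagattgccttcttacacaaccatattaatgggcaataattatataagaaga
wit: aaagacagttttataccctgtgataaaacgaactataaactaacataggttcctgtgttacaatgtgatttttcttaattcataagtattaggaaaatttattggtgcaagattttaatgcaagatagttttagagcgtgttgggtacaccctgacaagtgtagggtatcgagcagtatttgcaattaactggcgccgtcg
Smox: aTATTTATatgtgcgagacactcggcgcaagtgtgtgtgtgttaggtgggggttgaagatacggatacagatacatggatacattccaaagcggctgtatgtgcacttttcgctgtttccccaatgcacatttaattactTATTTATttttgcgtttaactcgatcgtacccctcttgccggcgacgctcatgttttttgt

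In these windows the forkhead core, the sequence that foxo and other forkhead proteins bind, stood at Smox but not at daw, myo or the highest wit summit. The Smox window held 2 copies, ATAAATA on the opposite strand each time, with centres 96 bp upstream and 43 bp downstream of the summit. The myo window held a DRE, the element bound by Dref and BEAF-32, and the daw window held a run of GAGA letters at its 5' end.

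Within the limit of 1000 bp, the gene with the strongest foxo-eGFP peak was wit, which encodes the type II receptor, and the receptor and Smad genes stood above the ligand genes. The value is the signal, the peak height that the authors' peak caller wrote, which is comparable only within 1 list. In the optimal list it ranged from 150.7 to 10606 with a median of 321. The highest peak of each receptor or Smad gene had a signal of 2650 at wit, 556 at babo and 467 at Smox. At the ligand genes it was 194 at gbb, 191 at daw and 177 at myo, so the groups did not overlap at this limit, and Actbeta had no optimal peak. With a limit of 2000 bp the groups overlapped. gbb then took in a summit of signal 4188 that lies 1163 bp upstream, at the promoter of eIF6, above all the receptor and Smad values. Smox took in a summit of signal 1521 that lies 1469 bp away, at the promoter of CG17982. No optimal summit was added at daw or myo. Within 1000 bp the value of babo also came from a peak nearest to the TSS of another gene, Tom7. That peak was the only optimal one counted for babo. With a limit of 500 bp babo and myo had no optimal summit, while daw and gbb kept theirs.

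Within 1000 bp the ligand genes also stood below the others in each replicate, although the order of genes inside each group varied and the optimal list was derived from these replicates. Each replicate list held 30000 peaks and background regions, ranked here by signal with 1 as the highest. The best region at babo, wit or Smox ranked 123 to 4497 in replicate 1, 130 to 2739 in replicate 2 and 133 to 4248 in replicate 3. The best region at a ligand gene ranked 4988 to 8122 in replicate 1 and 5464 to 7997 in replicate 3. In replicate 2, where Actbeta had its only region, the range was 6673 to 16834, so the groups did not overlap in any replicate at that limit. That separation rested on the babo peak nearest to the TSS of Tom7. The region at the babo promoter itself ranked 16610, 14943 and 12049 in replicates 1, 2 and 3. In each replicate this was below the best regions of daw, myo and gbb. The genes were few and were not replicates of each other, so no test was made of the difference between the ligand genes and the others.

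**Figure D1:**
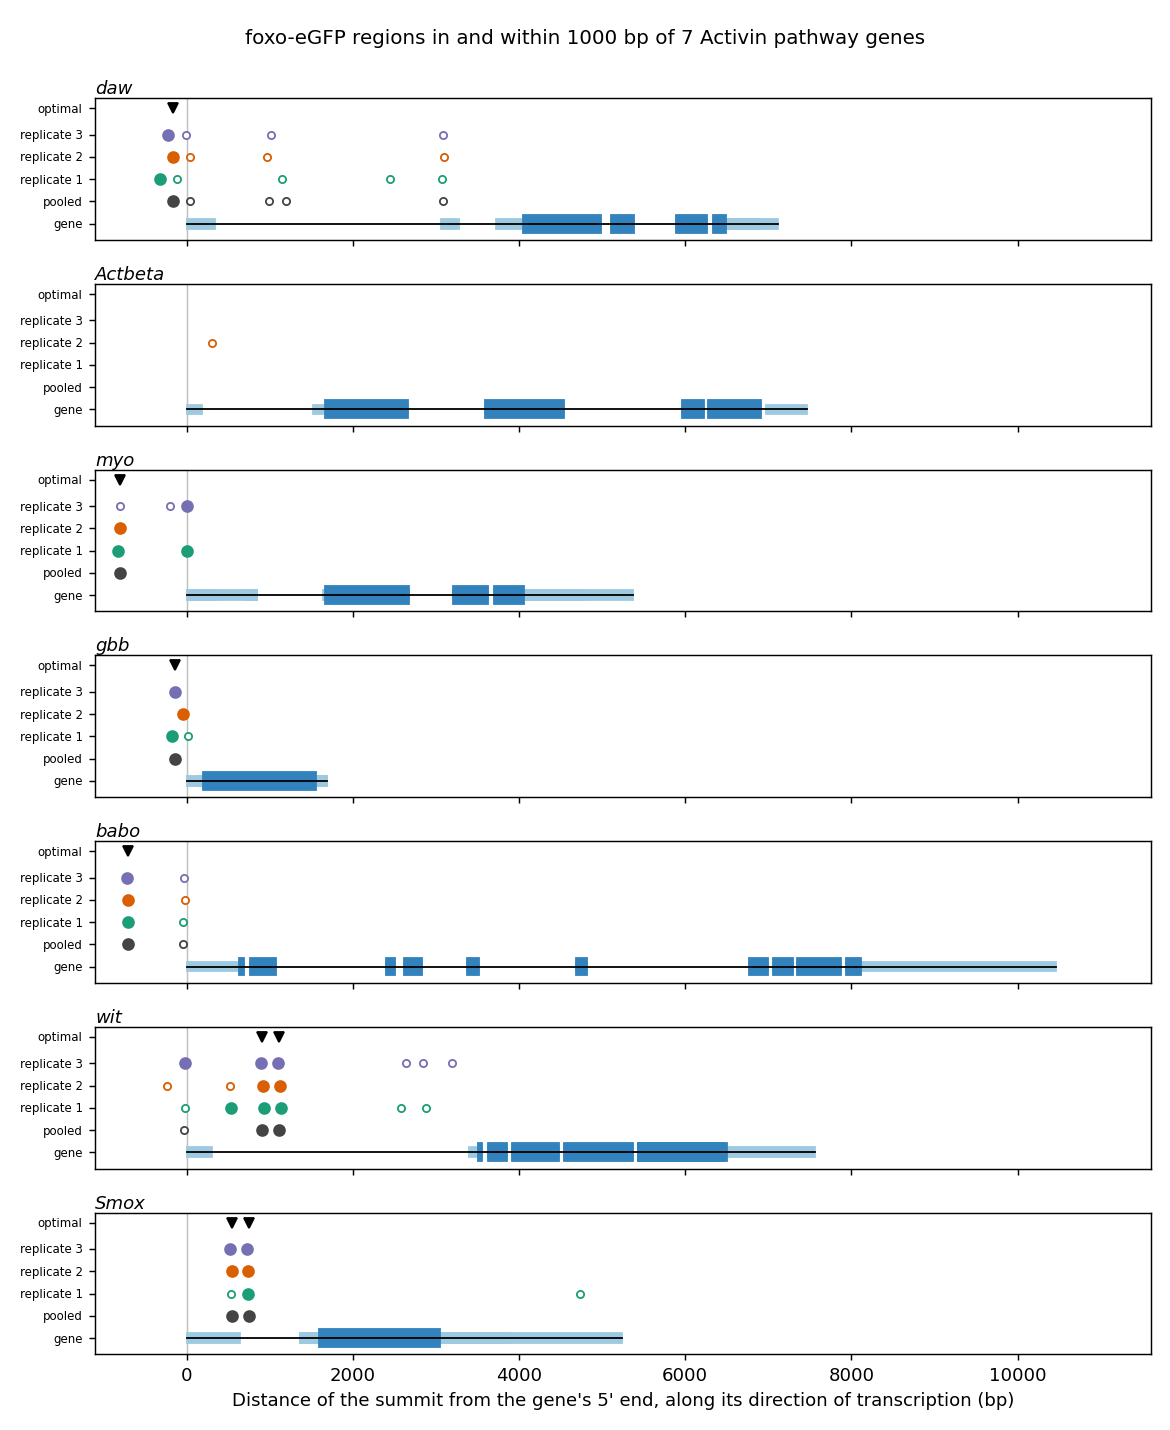
Positions of foxo-eGFP summits (x axis, bp from the 5' end of the gene, along transcription) at the 7 genes, with 1 line each for the pooled list, the 3 replicates and the optimal list (triangles). Filled circles rank 9766 or better in their list and open circles lower, light blue boxes are exons and dark blue boxes coding sequence. The optimal summits lie upstream of daw, myo, gbb and babo and downstream of the start site in wit and Smox, and Actbeta has a single low region in replicate 2.

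The background for these counts is high. Of all 13945 protein-coding genes, 40.0% had an optimal summit in the gene or within 1000 bp, against 6 of the 7 genes here. The share grew with gene length. It was 33.6% in the length decile of gbb and 54.6% in the 2 deciles that hold the other 6 members. An optimal summit within 1000 bp of an annotated transcription start site (TSS) was found at 32.8% of protein-coding genes and at the same 6 of 7. The widened spans of the 7 genes held 0.136 summits per kb, against 0.0932 per kb over all protein-coding gene spans. The median signal of the 8 summits was 358, against 321 for all optimal peaks, while the median of the highest signal per gene was 330 for the 6 genes and 502 for all protein-coding genes with a summit.

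wit, on 3L (gene 4064152 to 4071717, minus strand), held a pair of summits in 1 peak interval (4070389 to 4071298), both in the first intron. The higher summit lay 1115 bp downstream of the TSS. Its signal of 2650 gave rank 125 of the 9766 optimal peaks, and the highest signal was lower at 96.8% of the protein-coding genes with a summit. In replicates 1, 2 and 3 the matching peak, with its summit within 100 bp, had a signal of 990, 1073 and 609 and ranked 123, 130 and 133. Its rank thus lay on average 0.429% from the top of the 30000 regions (SD 0.0171, n = 3), the smallest spread among the 8 summits.

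The lower wit summit lay 902 bp downstream of the TSS with a signal of 643, and it is the one that placed wit within 1000 bp of a TSS. Its signal was 204, 151 and 270 in replicates 1, 2 and 3, at ranks 2695, 3926 and 886, so replicate 3 stood highest. The TSS of wit itself had a weak region in the pooled list at -29 bp, with a signal of 60.3 and rank 20150. Replicates 1 and 3 had a matching region at ranks 10305 and 8939, and replicate 2 had none within 100 bp. CG32259, a gene inside the same intron, ends before the summits, and its TSS lay 1113 bp from the higher of them. No other optimal summit lay closer to wit than 37602 bp.

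babo, the gene of the type I receptor, had 1 optimal summit, and it lay nearer to another gene. On 2R (gene 8952339 to 8962796, plus strand) the peak from 8951457 to 8951788 had its summit 700 bp upstream of the babo TSS and 44 bp downstream of the TSS of Tom7, in the 5' UTR of that gene. Tom7 encodes a subunit of the mitochondrial outer membrane import complex. The divergent genes CG33199 and CG8229 start 553 bp from the summit, on the same side of it as the Tom7 TSS. The signal was 556 (rank 2540 of the optimal list). In replicates 1, 2 and 3 it was 256, 211 and 97.2, at ranks 1925, 2640 and 4248.

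The promoter of babo itself carried a region that did not reach the optimal list. In the pooled list it lay at -42 bp with a signal of 100 and rank 13577. It recurred in replicates 1, 2 and 3 at -42, -14 and -27 bp, at ranks 16610, 14943 and 12049. The replicates thus placed this region at nearly 1 position, at a low signal in each list.

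Smox, which encodes the Smad of the Activin branch, held a pair of summits just downstream of its start on the X (gene 8137041 to 8142279, minus strand). The higher (peak 8141370 to 8141637) lay 747 bp downstream of the TSS in the first intron, with a signal of 467 and rank 3213. Its replicate signals were 133, 206 and 133 at ranks 4497, 2739 and 2807 in replicates 1, 2 and 3. The lower (peak 8141505 to 8141964) lay 544 bp downstream, in the 5' UTR, with a signal of 250 and rank 6226. It ranked 10206, 6966 and 4875, so that replicate 1 placed it just below rank 9766. The promoter of the neighbouring CG17982 lay outside the limit: an optimal summit 1469 bp from Smox, with a signal of 1521, was 87 bp downstream of that TSS.

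**Figure D2:**
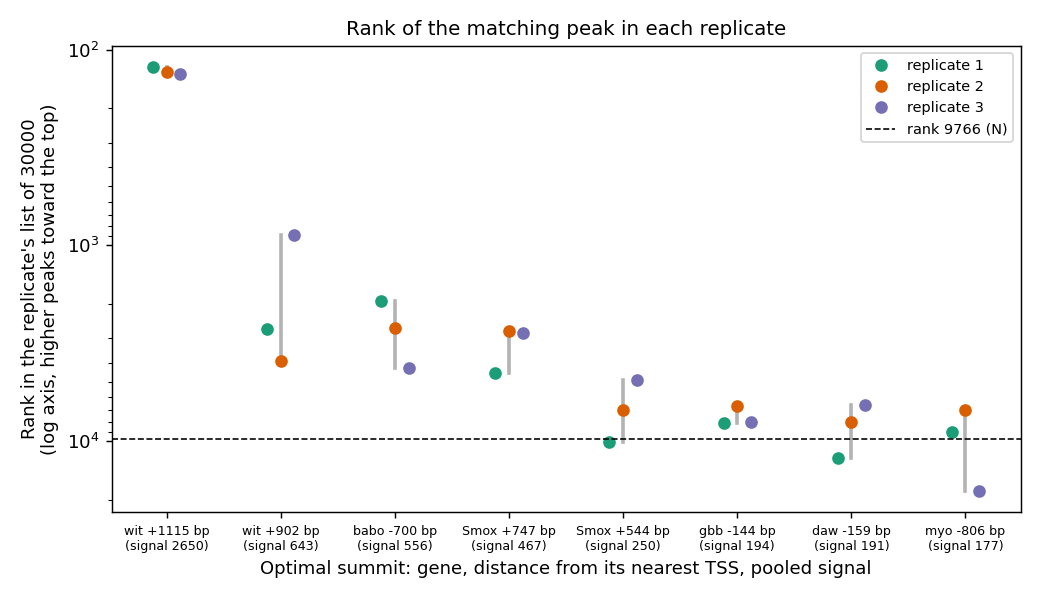
Rank of the matching peak (log axis, higher peaks toward the top) in each replicate's list of 30000 regions, for the 8 optimal summits ordered by pooled signal, with grey bars for the range over the 3 replicates. The highest wit summit ranks 123 to 133 in all replicates, while the daw, myo and lower Smox summits each have 1 replicate below rank 9766 (dashed line).

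The ligand peaks were close to the end of the optimal list. daw, whose product is an Activin-like ligand that acts on sugar and fat metabolism, lies on 2L (gene 2805261 to 2812376, plus strand) and had 1 optimal summit, 159 bp upstream of its distal TSS (peak 2804872 to 2805331). The signal was 191 and the rank 8025 of 9766. No TSS of another gene lay within 3000 bp of that summit, unlike those of gbb and myo. Matching peaks had a signal of 46.7, 72.1 and 67.2 in replicates 1, 2 and 3, at ranks 12249, 8040 and 6536.

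The low rank of daw in replicate 1 depended on where that replicate put its summit. Replicate 1 held a higher peak 158 bp upstream of the optimal summit, with a signal of 85.7 and rank 7124, beyond the 100 bp limit for a match. Taken by any overlap of the intervals, the daw peak therefore ranked 7124, 8040 and 6536, which is within the top 9766 of all 3 replicates.

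daw also had regions below the optimal threshold. The second annotated TSS of the gene, downstream of its first exon, had a pooled region 23 bp downstream with a signal of 72.9 and rank 17394. Matching regions were present in replicates 1, 2 and 3 at ranks 14260, 22718 and 27285. A pooled region 41 bp downstream of the distal TSS had a signal of 46.7 and no match in replicate 1. A pair of further pooled regions lay in the first intron 990 and 1191 bp from the distal TSS, with signals of 80.7 and 78.4. Neither had a match within 100 bp in all 3 replicates: the nearer one was missing from replicate 1, and the farther one was found in replicate 1 only, at rank 10946. The nearest optimal summit outside the limit was 18108 bp away.

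gbb, the BMP-type ligand gene, shared its promoter peak with its neighbours. On 2R (gene 23851562 to 23853247, plus strand) the summit of the peak from 23851188 to 23851647 lay 144 bp upstream of the gbb TSS. It also lay 62 bp downstream of the TSS of ytr, in its 5' UTR, and inside an exon of the noncoding asRNA:CR45928. The signal was 194 (rank 7908), and the replicates gave 74.4, 89.0 and 56.0 at ranks 8122, 6673 and 7997, the closest ranks among the ligand summits. In replicate 2 the matching summit lay 98 bp from the optimal one, barely inside the 100 bp limit for a match. A far higher peak stood just outside the limit of 1000 bp around the gene. At 1163 bp upstream of gbb a summit of signal 4188 and rank 49 lay 98 bp upstream of the TSS of eIF6, a ribosome biogenesis factor gene.

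myo, which encodes myoglianin, the fly relative of myostatin, lies on chromosome 4 (gene 690686 to 696055, minus strand). Its 1 optimal summit (peak 696631 to 697090) lay 806 bp upstream of the myo TSS and 828 bp upstream of the TSS of ey, the eyeless gene that runs the other way. It had the lowest signal of the 8, 177 (rank 8549), and the replicates gave 66.5, 85.4 and 23.9 at ranks 9018, 6929 and 18107. Replicate 3 was thus far below the others. It was the member summit with the widest spread, with a mean rank 37.8% from the top of the lists (SD 19.8, n = 3).

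At the myo TSS itself the replicates disagreed with the pooled list. Replicates 1 and 3 each had a region there, 5 and 2 bp downstream of the TSS, with signals of 122 and 79.2 at ranks 4988 and 5464, which is higher than their regions at the upstream summit. Replicate 2 and the pooled list had no summit within 100 bp. Such a case was uncommon. Of the 7224 peaks in the top 9766 of replicate 1 that were also in the top 9766 of replicate 3, 183 or 2.53% had no pooled summit within 100 bp, and for 109 of these no pooled region overlapped.

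Actbeta, the gene of the ligand Activin-beta, which is expressed in neurons, was the member with no optimal summit. On chromosome 4 (gene 1077331 to 1084796, minus strand) it had no region in the pooled list or in replicates 1 and 3, and 1 in replicate 2. That region lay 308 bp downstream of the TSS in an intron, with a signal of 30.0 and rank 16834. The nearest optimal summit was 28551 bp away. Chromosome 4 is largely heterochromatic, and only 14 of its 80 protein-coding genes (17.5%) had an optimal summit in the gene or within 1000 bp. Repeat masking covered 27.8% of chromosome 4 and 20.0% of the large arms, 27.6% of the widened span of Actbeta and 24.8% of that of myo. The other members' spans were masked at 7.63% to 14.1%. Whether masking had a part in the missing peaks was not tested.

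Of the 8 summits, 5 were matched among the top 9766 peaks of all 3 replicates: both at wit, the higher at Smox, and those at babo and gbb. That is 62.5% (Wilson 95% interval 30.6 to 86.3), near the 65.2% (64.2 to 66.1) of all optimal peaks. Replicate 1 held 6 of the 8 above that rank, replicate 2 all 8 and replicate 3 held 7, against 85.8%, 86.4% and 80.5% of all optimal peaks. All 8 had a match somewhere in each full list. The median member summit ranked 21.0%, 17.7% and 15.2% from the top of the lists of replicates 1, 2 and 3 (mean 18.0%, SD 2.93, n = 3), against a mean of 16.2% (SD 0.206, n = 3) for all optimal peaks. The interval covers counting error only, and the paired summits at wit and at Smox share their surroundings.

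The forkhead core lay within 100 bp of 2 of the 8 summits, against 36.8% of all optimal summits and 26.1% and 26.3% of windows 500 bp to their left and right. These were the higher Smox summit and the gbb summit, where ATAAATA was centred 72 bp away. The preferred forkhead site GTAAACA was at none of the 8 and at 5.73% of optimal summits. The nearest core was 107 bp from the lower Smox summit, just past the limit, and 225 bp from that of myo. It was 214 and 427 bp from the lower and higher wit summits, 525 bp from that of babo and 991 bp from that of daw.

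The DRE was found at 1 summit, that of myo, 77.5 bp away, and at 3.03% of optimal summits. Ohler 1 (GGTCACAC), a core promoter element bound by M1BP, was at none and at 2.32% of optimal summits. GAGA was at 1 of the 8, that of daw, and at 23.6% of optimal summits. The 4-letter Smad box (GTCT), which Smad proteins contact, was within 100 bp of 7 of the 8 summits and of 53.2% of all optimal summits, the lower Smox summit being the exception. Its share in the flank windows of optimal peaks was 59.3% on the left and 57.7% on the right, so these letters were no more frequent at summits in general. At babo, gbb and the higher wit and Smox summits the only copy lay 83.5 to 99.5 bp from the summit. At daw, myo and the lower wit summit the nearest copy lay 1.5 to 9.5 bp away. The median GC content of the 8 windows was 41.0%, against 35.3% over all optimal peaks.

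Other genes of the TGF-beta pathways, from a list of 13, held more optimal summits per kb than the 7 members. The list was chosen with earlier results of these data known. Of the 13, 10 had an optimal summit in the gene or within 1000 bp, against 6 of the 7 members and 40.0% of all protein-coding genes. They held 66 summits in all. Of these, 47 had a match at rank 9766 or better in all 3 replicates, against 65.2% of all optimal peaks. The list is weighted to long genes: 7 of the 13 were in the longest decile, where 71.2% of protein-coding genes had a summit. Per kb the widened spans held 0.181 summits, against 0.136 for the members. The median of the highest signal per gene was 1520, against 330 for the members with a summit. That value is a maximum over the summits of a gene, of which Snoo held 20. No optimal summit was found at the ligand genes mav and scw or at sax, which encodes a type I receptor of the BMP branch. sax had 2 regions in the pooled list, whereas mav and scw had no region in any list. mav, whose product is a further TGF-beta ligand, lies on chromosome 4 like Actbeta and myo.

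put, the gene of the other type II receptor of the Activin branch, had 2 summits, the higher in an intron 1482 bp downstream of the TSS with a signal of 572. It ranked 2769, 2056 and 2582 in replicates 1, 2 and 3. wit was thus the higher of these type II receptor genes in the optimal list and in each replicate. tkv, which encodes another type I receptor of the BMP branch, had 13 summits with a highest signal of 1808. dpp, its ligand gene, had 2 with a highest signal of 917.

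Among the Smad genes, Mad of the BMP branch had 5 summits with a highest signal of 303, below the 467 of Smox. Dad, the inhibitory Smad gene, had 7 with a highest signal of 1884, and Snoo, a Smad co-repressor gene, had 20 with a highest signal of 1474. The peak counted for Med, the co-Smad gene, had a signal of 3450 and rank 66, but it lay beyond the 3' end of Med and 13 bp upstream of the TSS of Mnat9. No summit stood within 1000 bp of the Med TSS.

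Extracellular regulators also held peaks. Fs, whose product follistatin binds Activins, had 6 summits, each with a match at rank 9766 or better in all 3 replicates, with a highest signal of 1569 at ranks 538, 403 and 476. plum, a cell surface protein gene linked to myoglianin signalling in neurons, had 9 with a highest signal of 1838, again each matched in all 3. tok, the gene of a tolloid-like protease that processes ligand precursors, had 1 of signal 288.

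**Figure D3:**
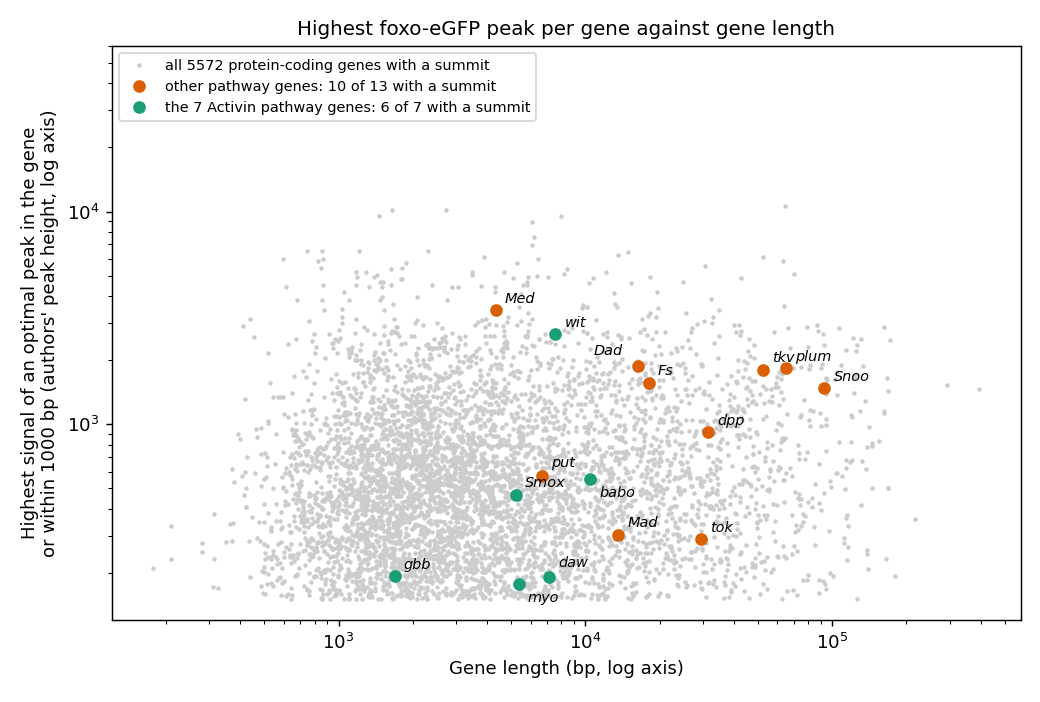
Highest signal of an optimal peak in or within 1000 bp of each gene (authors' peak height, log axis) against gene length (bp, log axis), for all 5572 protein-coding genes with a summit (grey), the members (green) and the other pathway genes (orange). wit lies near the top at 2650, babo and Smox in the middle at 556 and 467, and gbb, daw and myo at the lower edge between 177 and 194.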

How the data were processed

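Binding of foxo-eGFP was measured in 3 libraries of 1 group. The deposited files are narrowPeak lists on dm6: 30000 peaks and background regions per replicate and for the pooled replicates, and 9766 optimal peaks past the authors' irreproducible discovery rate threshold, derived from the other lists, per the deposited file listings. The signal is the deposited peak height. The sources used here do not give its scaling, the aligner, the peak caller or the threshold, so signal was compared only within 1 list and ranks between lists. The lists carry no read depth, so it is unknown here. Fragments were of 200 to 800 bp, per the labels. All 9766 optimal peaks stood in the pooled list with the same values. The dm3 lists were not used.

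Genes and TSSs came from Ensembl release 115 and sequence from NCBI Release 6, the same assembly as dm6. A summit was start plus offset. Distances were 1000 bp around genes and TSSs, 100 bp between matching summits (the highest match was taken) and 100 bp from a motif's centre, on both strands. N was 9766. Deciles were of gene length. Wilson intervals were at the 95% level. Computations used Python 3.11.15, pandas 2.3.3 and scipy 1.17.1, and the functions were tested on simulated data. With 1 group no test between conditions could be made. The members and lists were chosen with earlier results of these data known, and every member and every listed pathway gene is named. Alternatives varied the distances, the peak list, the replicates and the motif window.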

Additional observations from a re-analysis of the deposited data

How the results depend on the processing

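Of 51 recomputed values over 7 results, 38 lay within 1.5 times the value above (for the rank, within 1 SD between replicates) and 13 did not, a wide tolerance for counts this small. With gene bodies alone 2 of the 7 genes held a summit (wit and Smox, 4 summits), against 17.7% of protein-coding genes. Within 500 bp of the gene 4 did (6 summits), against 36.4%, and within 2000 bp 6 did (10 summits), against 46.2%. At 2000 bp gbb took in the peak of signal 4188, which ends the separation of ligand genes from the others. The separation also failed within 500 bp, where babo had no optimal summit but daw and gbb did. Within 500 bp of a TSS 2 genes held a summit (daw and gbb), near the 28.7% of protein-coding genes, and within 2000 bp 6 did, against 38.8%. Among the 4883 optimal peaks with the highest signal, 3 genes (babo, wit and Smox, 4 summits) held one in or near the gene, against 28.2%, and the same number near a TSS, against 22.0%. The median rank of member summits was then 7.61% from the top of replicate lists on average, in place of 18.0%, and it was 16.4% to 19.3% when a replicate was left out. The relaxed pooled list gave 14 member summits in 6 genes, against 55.4% of protein-coding genes, and the optimal peaks in the top 9766 of all replicates gave 5 in 4 genes, against 31.9%. Leaving out a replicate, 5 to 7 summits in 4 to 5 genes were among the top peaks of both others, the 5 being without replicate 2. The backgrounds were 32.8% to 34.9% of protein-coding genes. A match in all 3 replicates was found for 4 of the 8 summits within 50 bp (49.4% of optimal peaks), 4 in the top 4883 of each (35.8%), 7 within 250 bp (75.0%), 7 by any overlap (75.7%) and 8 in the full lists (87.8%). The forkhead core lay within 50 bp of 1 summit (22.1% of optimal peaks), within 200 bp of 3 (54.9%), and within 100 bp of 1 of the 4 among the highest peaks (39.0%). Other pathway genes with a summit numbered 8 to 11 of 13 under the alternatives. The share of all protein-coding genes ranged from 17.7% (gene bodies alone, 9 of 13) to 55.4% (relaxed pooled list, 11 of 13). The 8 summits and 3 libraries limit the precision of these values. No paired analysis was possible because there is 1 group.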

Other observations

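Chromosome 4, which carries Actbeta, myo and mav, held 15 of the optimal peaks and 42 pooled regions. That is 11.1 optimal peaks per Mb, against 72.9 per Mb over all arms. wit had a further region in replicate 1, 533 bp downstream of the TSS in the first intron, with a signal of 152 and rank 3837. Replicate 2 matched it at rank 18400 and replicate 3 had no match. It lies inside the pooled peak interval of wit, yet no pooled summit stood within 100 bp. Over the genome, 613 of the 9766 highest peaks of replicate 1 (6.28%) lacked a pooled summit within 100 bp, as did 516 (5.28%) in replicate 2 and 911 (9.33%) in replicate 3.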
